A study of Arabidopsis thaliana with 12 samples.

Results

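The chloroplast genome of Arabidopsis thaliana is represented in the deposited gene tables by 133 rows, taken here as every gene whose identifier starts with ATCG, out of 37184 annotated genes. RNA-seq was measured in seedlings 21 days old grown on soil, in 3 libraries of the wild type Col-0 and 3 of the mutant xrn3-8. Small RNA was sequenced from other seedlings, 14 days old and grown on MS plates, again in 3 libraries per genotype. The mutant carries an allele of XRN3, a nuclear gene for a 5′-to-3′ exoribonuclease that acts in the nucleus, and no other allele, transgene or treatment is given for either genotype. The series calls its replicates biological, without saying how plants were pooled.

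The chloroplast keeps a small genome of its own, present in many copies per leaf cell, with genes for core subunits of the photosystems, the cytochrome complex, the ATP synthase and Rubisco, for part of its transcription and translation machinery, and for ribosomal and transfer RNAs. These genes are transcribed inside the organelle by a bacterial-type RNA polymerase, which needs nuclear-encoded sigma factors, and by nuclear-encoded phage-type polymerases. Long primary transcripts are then cut, trimmed and protected by nuclear-encoded ribonucleases and RNA-binding proteins, so transcript levels depend on RNA stability as well as on transcription. The RNA-seq libraries were made from total RNA after depletion with a plant leaf ribosomal RNA kit and did not select for poly(A) tails.

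The reference annotation used here lists 129 chloroplast genes, of which 85 encode proteins, 37 are transfer RNAs and 7 are ribosomal RNAs, but under other identifiers. None of the ATCG identifiers could be matched to it (0 of 133). The genes are therefore given by identifier, with no name, role, class, length or sequence, and counts, shares and ranks below are not levels per length and do not order the genes by transcript number.

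RNA-seq depth lay between 61604670 and 79845518 counts over annotated genes per library. XRN3 itself had 48.8 ± 0.21 CPM (counts per 1e+06, mean ± SD over 3 libraries) in Col-0 against 20.5 ± 1.33 in the mutant, or -1.25 (SE 0.077) as a log2 fold change, and the groups did not overlap. Summed CPM of 5 leaf mesophyll markers lay between 11638 and 13478 in Col-0 and between 8755 and 11375 in xrn3-8. In the edgeR comparison described below, 4 of the 5 were lower in the mutant, beside 17.3% of all tested genes. The sum of 5 root markers lay between 87.6 and 138 CPM in Col-0 and between 63.4 and 115 in xrn3-8, with 3 of them below 1 CPM in every library. The sum of 3 flower markers lay between 0.47 and 0.78 CPM in Col-0 and between 1.19 and 2.73 in xrn3-8. Of these, 1 was higher in the mutant, beside 16.0% of all tested genes. In the same order of genotypes, 3 seed markers summed to between 0.0605 and 3.38 CPM and between 0.0124 and 0.0155 CPM. Of the seed markers, 1 was below 1 CPM in every library. No root or seed marker was called, but a marker with too few counts to be tested could not be. How many of them were tested is not given here. The part of these differences in any chloroplast value was not tested. In these whole-seedling libraries fewer cells of a type and less RNA per cell cannot be told apart.

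Chloroplast genes held slightly more counts than all nuclear genes together, and the genotypes did not differ beyond their spread. Their share of all gene counts was 52.6%, 52.7% and 51.8% in the 3 Col-0 libraries and 52.1%, 54.6% and 50.1% in the 3 xrn3-8 libraries. The means were 52.4% ± 0.48 and 52.3% ± 2.23 (SD, n = 3), a difference of -0.12 percentage points (exact permutation test, two-sided, p = 1, where 3 against 3 cannot go below 0.1). The mutant libraries lay on both sides of the Col-0 range, replicate 2 above it and replicate 3 below it. Per nuclear count there were 1.11 ± 0.021 chloroplast counts in Col-0 and 1.11 ± 0.10 in xrn3-8. The mitochondrial share was 0.378% ± 0.0087 in the wild type and 0.468% ± 0.0177 in the mutant, with no overlap (exact permutation p = 0.1, the smallest possible).

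**Figure D1:**
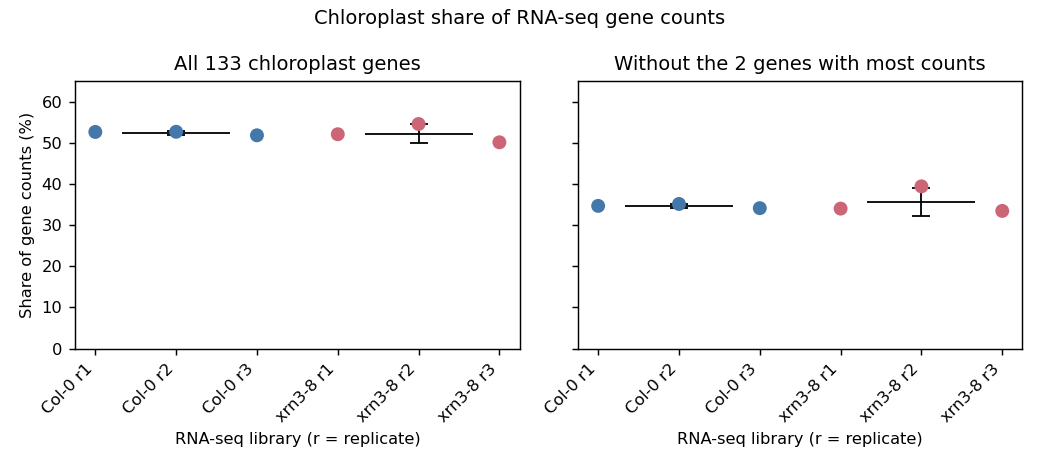
Share of RNA-seq gene counts (%, y axis) held by chloroplast genes in each of 6 libraries (x axis), for all 133 genes on the left and without ATCG00020 and ATCG00490 on the right; points are libraries and black bars are means ± SD over 3 libraries. The Col-0 libraries lie together at 51.8% to 52.7%, and xrn3-8 replicate 2 is the highest point in both panels, at 54.6% and 39.4%.

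A pair of genes carried 45.8% to 52.6% of these counts. ATCG00020 had 10640030, 10526578 and 9228990 counts in the Col-0 libraries and 8328063, 10258273 and 9405899 in those of xrn3-8. ATCG00490 had 7837519, 8717580 and 7368710 in the wild type and 8535622, 9700072 and 8364941 in the mutant. They ranked 1 and 2 among all annotated genes in both genotypes. Together they held 52.2%, 51.3% and 51.8% of chloroplast counts in the Col-0 libraries and 52.6%, 45.8% and 49.97% in the xrn3-8 libraries, so replicate 2 of the mutant was the low one. With both left out, chosen after seeing the data, the chloroplast share was 34.6% ± 0.51 in Col-0 and 35.6% ± 3.29 in xrn3-8, and the sign of the difference turned to 0.98 percentage points (exact permutation p = 1). In that share replicate 2 of xrn3-8 stood at 39.4%, against 34.0% and 33.5% in the other two.

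The members next in counts followed at a distance. ATCG00340 had 1414960, 1496322 and 1321253 counts in the wild type and 1617529, 2075138 and 1665284 in the mutant, and ATCG00350 had 1208705, 1276394 and 1129713 against 1428085, 1720986 and 1405922. These 4 were the only members with a Col-0 mean of at least 1000000 counts. Of the rest, 40 had a mean of at least 100000 counts, 34 of at least 10000, 35 of at least 100 and 20 below 100, each counted once in the highest class it reached, and 1 had 0 counts in all 6 libraries. The median member had a mean of 39835 counts in Col-0 and a median rank of 125 among all annotated genes. The 10 genes with the most counts were chloroplast genes in each of the 6 libraries, as were 41 to 46 of the first 50 and 61 to 66 of the first 100. The order of the members was close in both genotypes, with a Spearman rho of 0.998 between their Col-0 and xrn3-8 mean counts across 133 genes, which share libraries and are not independent.

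Part of the low counts were gathered in stretches of the identifier order. These stretches hold 37 members. By Col-0 mean, 20 members were below 100 counts and 35 lay from 100 to below 10000, so other low members lie outside them. ATCG00700, with a mean of 1587, is an example. The 19 members from ATCG00830 to ATCG01000 had mean Col-0 counts of at most 13290 and together held 0.0898% of chloroplast counts, and the 18 members from ATCG01140 to ATCG01310 had at most 5926 and held 0.0452%. ATCG00820, just outside, had a mean of 20809 counts. The bound of 15000 counts was chosen after seeing the values, so these stretches are a description with no test. Reads with several positions were tallied apart and not given to any gene, and this tally held 9.8% to 11.2% of tallied reads per library. The reference lists 15 chloroplast gene symbols more than once, and the share of the tally that belongs to such copies was not tested. Counts in these stretches, and of any other gene with a second copy, are therefore uncertain as levels.

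**Figure D2:**
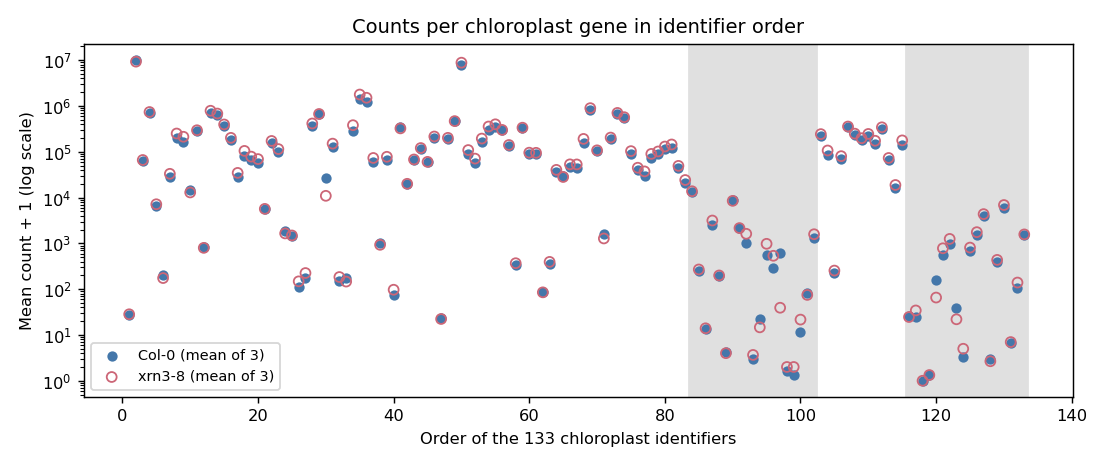
Mean count plus 1 (log scale, y axis) of each of the 133 chloroplast genes in the order of their identifiers (x axis), with filled points for Col-0 and open points for xrn3-8, each a mean of 3 libraries; grey bands mark ATCG00830 to ATCG01000 and ATCG01140 to ATCG01310. Genes inside the bands stay below 15000 counts, and most genes outside them lie above that count. The second band ends at the last identifier, and filled and open points lie close together for most genes.

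The comparison of xrn3-8 with Col-0 asks which genes differ in the mutant, and it was made over all annotated genes with edgeR, a negative binomial test for counts. A gene is called when its Benjamini-Hochberg adjusted p over all 20764 tested genes is below 0.05. Few chloroplast genes were called. Of the 124 members with enough counts to be tested, 1 was higher in xrn3-8, 3 were lower and 120 were not called, which is 3.23% of members called beside 33.3% of all tested genes. By direction, 16.0% of all tested genes were higher and 17.3% lower. The other 9 members were not tested and had at most 35 counts summed over 6 libraries. At an unadjusted p below 0.05 there were 12 members (9.68%), beside 43.2% of all tested genes. The groups did not overlap in CPM for 10 of the 124 members (8.06%), beside 48.1% of all tested genes.

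Most members moved little on average, but the number of calls and the size of the median change depend on replicate 2 of xrn3-8. The median log2 fold change over the tested members was -0.11, with 35 positive and 89 negative values, beside a median of 0.0054 over all tested genes. With other settings 8 of 123 members were lower with DESeq2 (17.8% of all genes lower) and 6 of 132 with no filter on low counts (13.9%). DESeq2 gave no adjusted p for ATCG00950, one of the called members. The 95% interval of the log2 fold change lay inside a 2-fold change in either direction for 109 members and inside a 1.5-fold change for 84. Without replicate 2 of xrn3-8, 39 of 124 members were lower (31.5%) and 1 was higher, beside 16.3% of all tested genes lower and 15.6% higher in that fit, and the median was -0.24. The 4 members called with every library were called in that fit too, and the log2 fold changes of the 39 lay between -4.38 and -0.27. Without replicate 1 of xrn3-8, 5 members were lower and 0 higher (16.5% and 14.5% of all tested genes), and without replicate 3, 2 were lower and 1 was higher (13.7% and 12.8%).

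In each xrn3-8 library behind this, most members, but not all, lay on the same side of the Col-0 libraries. With libraries scaled from nuclear genes, each member's log2(CPM + 0.5) was set against its Col-0 mean. The median over members was -0.013, 0.064 and -0.054 in the Col-0 libraries and -0.24, 0.17 and -0.25 in the xrn3-8 libraries. Replicates 1 and 3 of the mutant were low and replicate 2 was high. In replicate 1 of xrn3-8, 85 of 124 members lay below all 3 Col-0 libraries and 16 above them, in replicate 3 these counts were 101 and 3, and in replicate 2 they were 12 and 74. With all-gene scaling, ATCG00020, the member with the most counts, lay below every Col-0 library in replicate 2 too, as given below. Among nuclear genes the same libraries had 36.3% to 37.7% of genes below and 38.6% to 39.3% above. The median SD between replicates over the 113 members with a mean of at least 100 counts was 0.081 on the log2 scale in Col-0 and 0.27 in xrn3-8, beside 0.099 and 0.13 for nuclear genes.

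**Figure D3:**
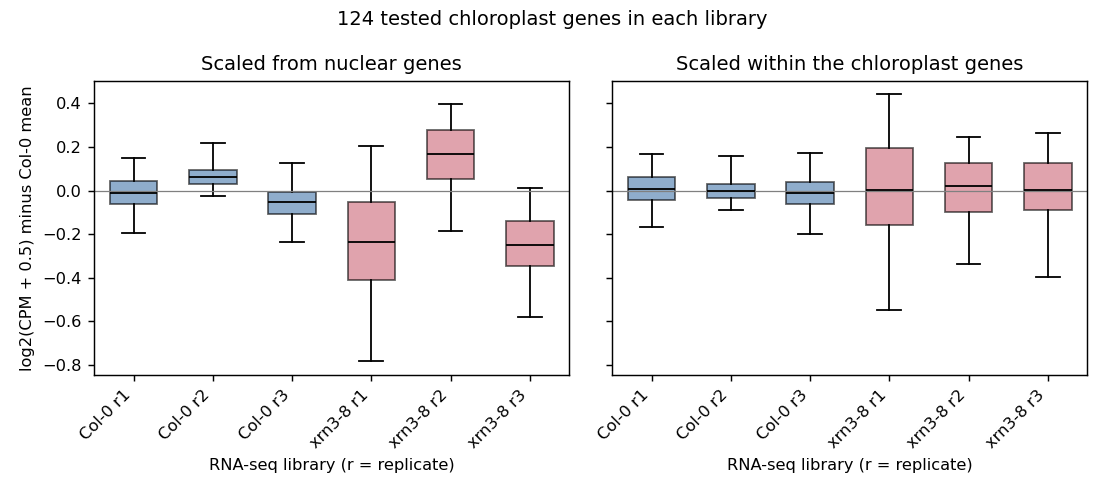
log2(CPM + 0.5) of the 124 tested chloroplast genes minus the mean of the 3 Col-0 libraries (y axis) in each library (x axis), with libraries scaled from nuclear genes on the left and within the chloroplast genes on the right; boxes give quartiles and median, whiskers reach from the 5th to the 95th percentile. On the left xrn3-8 replicates 1 and 3 lie low, with medians of -0.24 and -0.25, and replicate 2 lies high at 0.17; on the right all medians are near 0 and the mutant boxes remain taller.

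Scaling from nuclear genes alone gave the same calls as scaling from all genes, 1 member higher and 3 lower (beside 16.5% and 16.8% of all tested genes, 33.3% in all), with a median log2 fold change of -0.098. The groups did not overlap for 9 members (7.26%, beside 47.9%). Scaling within the chloroplast genes asks instead how the members changed relative to each other, and removes any change they share. It moved the median of all tested genes from 0.0054 to 0.14, a shift of the scale itself, and the median of the members to 0.0098. There, 3 members were higher and 4 lower, 5.65% of 124 beside 22.2% of all tested genes under that scaling (14.5% higher and 7.67% lower), and the groups did not overlap for 33 members (26.6%, beside 34.2%). Without replicate 2 of xrn3-8 these counts were 9 higher and 12 lower, beside 34% and 7.99% of all tested genes. The median SD between replicates was 0.054 in the wild type and 0.13 in the mutant.

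ATCG00290 was the only member called in all fits that were run. Its counts were 28934, 28552 and 22480 in the wild type and 9219, 14684 and 8953 in the mutant. On the CPM scale these were 450, 432 and 380 against 143, 182 and 114, and every mutant library lay below every Col-0 library. It was lower in xrn3-8, with a log2 fold change of -1.52 (SE 0.15, edgeR adjusted p = 4.16e-05), and -1.41 (SE 0.16) when scaled within the chloroplast genes. Its rank among all genes by counts went from 166 to 466. It was called lower in each of the 25 alternative fits. Its neighbours in identifier order, ATCG00280 and ATCG00300, were not called, at -0.19 (SE 0.13) and -0.039 (SE 0.15).

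ATCG00700 was lower by a smaller amount. It had 1482, 1672 and 1606 counts in the wild type and 933, 1515 and 1395 in the mutant, or 23.0, 25.3 and 27.1 CPM against 14.5, 18.8 and 17.7, with no overlap. The log2 fold change was -0.56 (SE 0.11, edgeR adjusted p = 0.0026). Scaled within the chloroplast genes it was -0.44 (SE 0.18) and no longer called (adjusted p = 0.067). Its neighbours ATCG00690 and ATCG00710 were not called, at -0.19 (SE 0.11) and -0.11 (SE 0.13).

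The other called members had few counts and lay inside the first low stretch. ATCG00950 had 65, 1682 and 102 counts in the wild type and 40, 52 and 23 in the mutant, so a single Col-0 library held nearly all of them. Its log2 fold change was -4.19 (SE 1.08, edgeR adjusted p = 0.013), and -1.39 without replicate 2 of Col-0 (adjusted p = 0.033). Without replicate 3 of xrn3-8 it was not called (-3.88, adjusted p = 0.057). ATCG00940 had 310, 376 and 182 counts in the wild type and 549, 422 and 636 in the mutant. In CPM these were 4.82, 5.69 and 3.07 against 8.53, 5.23 and 8.07, which overlap. It was higher in xrn3-8, with a log2 fold change of 0.68 (SE 0.23, edgeR adjusted p = 0.044). It was not called in the fits without Col-0 replicate 1 (0.72, adjusted p = 0.079), Col-0 replicate 3 (0.46, adjusted p = 0.14), xrn3-8 replicate 1 (0.55, adjusted p = 0.13) or xrn3-8 replicate 3 (0.61, adjusted p = 0.13).

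Within the chloroplast genes, 4 members were called that had not been called with all-gene scaling. ATCG00020 was lower, with a log2 fold change of -0.21 (SE 0.069, edgeR adjusted p = 0.018). It held 29.0% ± 1.01 of chloroplast counts in the wild type and 25.3% ± 1.55 in the mutant. With all-gene scaling its CPM was 165340, 159184 and 155860 in the wild type and 129468, 127085 and 119363 in the mutant, without overlap, and the log2 fold change of -0.35 (SE 0.18) was not called (adjusted p = 0.16). Within the chloroplast genes its call was kept in 3 of 6 fits that left out a library. It was lost without Col-0 replicate 1 (-0.18, adjusted p = 0.066), xrn3-8 replicate 2 (-0.11, adjusted p = 0.21) or xrn3-8 replicate 3 (-0.25, adjusted p = 0.14). ATCG00340 was higher, at 0.24 (SE 0.088, adjusted p = 0.043), with 4.04% ± 0.076 of chloroplast counts in the wild type and 4.83% ± 0.19 in the mutant, and with all-gene scaling it was at 0.11 (SE 0.14). Its call within the chloroplast genes was kept in 1 of 6 such fits, the one without xrn3-8 replicate 2 (0.31, adjusted p = 0.010). In the other 5 the log2 fold change lay between 0.13, without xrn3-8 replicate 1, and 0.26, and the adjusted p between 0.059 and 0.20.

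The remaining pair had low counts, ATCG00930 in the first low stretch and ATCG01180 in the second, where counts are uncertain as levels. ATCG00930 had 496, 745 and 428 counts in the wild type and 1495, 770 and 672 in the mutant, and was higher within the chloroplast genes at 0.84 (SE 0.24, edgeR adjusted p = 0.0064). Replicate 1 of xrn3-8 was the high library, and without it the log2 fold change was 0.13 (adjusted p = 0.79). ATCG01180 had 167, 45 and 262 counts in the wild type and 43, 116 and 35 in the mutant, and was lower at -1.55 (SE 0.37, adjusted p = 0.0012). It was not called without Col-0 replicate 3 (-0.88, adjusted p = 0.12) or without xrn3-8 replicate 3 (-1.29, adjusted p = 0.12).

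**Figure D4:**
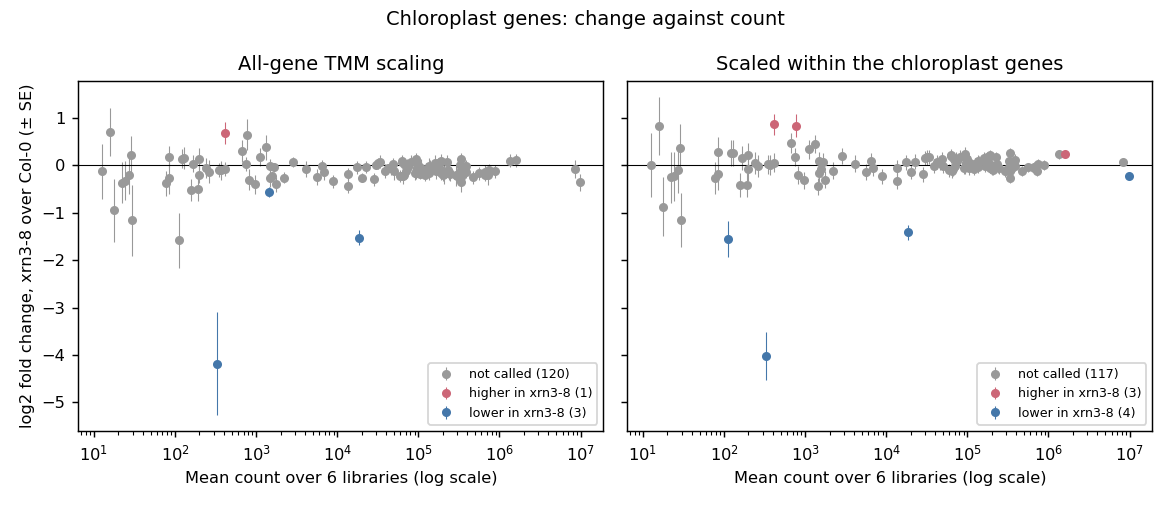
log2 fold change of xrn3-8 over Col-0 with its SE (y axis) against mean count over 6 libraries (log scale, x axis) for the 124 tested chloroplast genes, with all-gene scaling on the left and scaling within the chloroplast genes on the right; red marks genes called higher, blue genes called lower. ATCG00290 at -1.52 stands below the other genes of its count range, and the most extreme point, ATCG00950 at -4.19, has a wide error.

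Of the 10 members with the most counts, none was called with all-gene scaling, with edgeR adjusted p between 0.16 and 0.79. Without replicate 2 of xrn3-8, 3 of them were called lower, ATCG00040 at -0.49 (adjusted p = 0.0074), ATCG00130 at -0.31 (adjusted p = 0.033) and ATCG00020 at -0.35 (adjusted p = 0.042). In that fit 31.5% of all tested members and 16.3% of all tested genes were lower. DESeq2 with every library called ATCG00020 lower, at -0.35 (adjusted p = 3.23e-05). Besides those given, ATCG00490 was at -0.075 (SE 0.18), ATCG00350 at 0.10 (SE 0.14) and ATCG00680 at -0.12 (SE 0.14). ATCG00120 was at -0.093 (SE 0.13), ATCG00040 at -0.21 (SE 0.20), ATCG00720 at -0.16 (SE 0.13) and ATCG00130 at -0.15 (SE 0.15). The signs of ATCG00490, ATCG00680 and ATCG00120 turned when scaled within the chloroplast genes, to 0.067, 0.017 and 0.036. The tested members were also ranked by mean count and split evenly into 3 classes. In the lowest class 3 of 42 were called with all-gene scaling, beside 33.3% of all tested genes. In the middle class 1 of 41 was called, and in the highest 0 of 41. The median SE was 0.23, 0.13 and 0.14 in these classes.

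A list of 31 nuclear genes for transcription, processing and decay of chloroplast RNA was read from the same fit. It had 8 genes higher in xrn3-8, 4 lower and 19 not called, so 38.7% were called beside 33.3% of all tested genes (16% higher and 17.3% lower), with a median log2 fold change of -0.0011 beside 0.0054 over all tested genes. Of 6 sigma factors, which guide the bacterial-type polymerase to promoters, 1 was higher and 2 were lower. SIGE, known as a light- and stress-responsive sigma factor, was at 36.2 ± 3.44 CPM in the wild type and 11.4 ± 1.75 in the mutant, with a log2 fold change of -1.66 (SE 0.12). SIGA was also lower, at -0.77 (SE 0.11). SIG4 was higher, at 0.30 (SE 0.094), a call that was lost when scaled within the chloroplast genes (adjusted p = 0.068). With all-gene scaling the SIG4 call was lost without Col-0 replicate 1, 2 or 3 or xrn3-8 replicate 1 (edgeR adjusted p between 0.065 and 0.10).

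Of 12 proteins associated with the bacterial-type polymerase, 5 were higher and 0 lower (41.7% called, beside the same 33.3%). These were PTAC2 at 0.46 (SE 0.085), PDE312 at 0.41 (SE 0.11), FSD3 at 0.35 (SE 0.10), PTAC6 at 0.35 (SE 0.079) and MURE at 0.28 (SE 0.074). MURE was not called when scaled within the chloroplast genes (adjusted p = 0.080). Some of these calls were lost in fits that left out 1 library, which also called fewer of all tested genes higher. Without Col-0 replicate 3, PDE312 (0.31, edgeR adjusted p = 0.061), FSD3 (0.27, adjusted p = 0.10) and MURE (0.23, adjusted p = 0.076) were not called. FSD3 was also not called without xrn3-8 replicate 2 (0.27, adjusted p = 0.062). SCA3, a phage-type polymerase of the chloroplast, was higher at 0.43 (SE 0.079), and the other phage-type gene on the list was not called. Of 6 genes for ribonucleases or related RNA-binding proteins, emb2746, a chloroplast RNase J, was higher at 0.88 (SE 0.098), with 19.4 ± 2.27 CPM in the wild type and 35.6 ± 2.07 in the mutant. CRB, a chloroplast stem-loop RNA-binding protein, was lower at -0.67 (SE 0.086). Of 5 genes for factors that stabilise particular chloroplast transcripts, HCF107 was lower at -0.72 (SE 0.081), from 68.7 ± 3.75 to 41.6 ± 2.70 CPM, and the other 4 were not called. Whether these changes bear on the chloroplast counts was not tested. The higher calls on the list fell to 4 without replicate 3 of Col-0, where 11.8% of all tested genes were higher. They were 7 or 8 in each of the other 5 fits that left out a library, beside 12.6% to 15.6% of all tested genes.

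**Figure D5:**
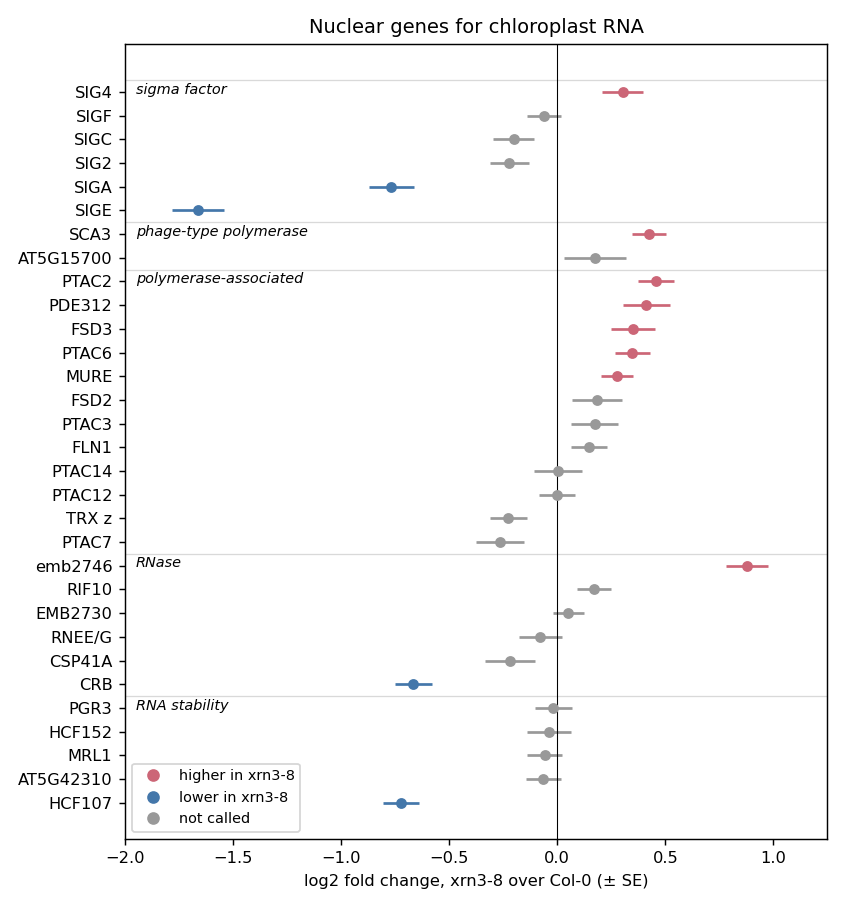
log2 fold change of xrn3-8 over Col-0 with its SE (x axis, all-gene scaling) for 31 nuclear genes of chloroplast transcription and RNA metabolism, grouped by role (y axis); red marks genes called higher in xrn3-8, blue lower and grey not called. SIGE at -1.66 and emb2746 at 0.88 lie farthest from 0 on either side, and 5 of the 12 polymerase-associated genes are red.

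The small RNA tables hold the same 133 rows, and all of them were 0 in all 6 libraries. All 152 rows of the mitochondrial genome were 0 too, while 63.4% to 68.5% of the 36899 nuclear rows had counts, from 5873199 to 7122245 counts per library. No level, rank or difference between the genotypes can therefore be given for chloroplast small RNA. Reads that fell in no counted gene made up 67.1% to 71.2% of the tallied small RNA reads, and no source used here says whether reads from the organelle genomes could be counted. If they could, a count of 0 allows up to 3 counts, or a share between 4.21e-05% and 5.11e-05% of gene counts per library, which covers counting error only. The RNA-seq tables with flanking windows held no window named after a chloroplast gene (0 of 33985), and the 798 values of the members there were identical to those of the gene tables.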

How the data were processed

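The values used are whole-number read counts per gene, made by the authors and deposited without normalization. HISAT2 and HTSeq for RNA-seq, Bowtie and HTSeq for small RNA, DESeq2, bedtools and the TAIR10 build are named per the submitters' processing notes. The RNA-seq libraries were stranded, per the labels' protocols, but no source read gives a tool's version or whether the counting used the strand. Counter tallies for unassigned reads (22.6% to 26.1% of tallied RNA-seq reads) and assembled loci stayed out of library sizes and tests. Without a stated strand setting, a gene cannot be separated from one that overlaps it or lies antisense to it.

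Counts were tested with edgeR 4.0.16 in R 4.3.3 (quasi-likelihood test, two-sided, filterByExpr with a minimum count of 10, TMM factors over all tested genes, Benjamini-Hochberg adjustment, threshold 0.05), on 3 against 3 libraries. Nuclear and chloroplast scaling took library sizes and TMM factors from those genes alone. The SE is the size of the log2 fold change divided by the square root of F; CPM uses scaled library sizes per 1e+06. Shares were compared with an exact permutation test. The script was tested on simulated data. Alternatives were DESeq2 1.42.0, total counts, no filter, a replicate block, leaving out each library and, chosen after seeing the data, scaling to total chloroplast counts and a share without the top 2 genes.

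The members and lists were chosen with earlier results of these data known. The rule named the called members and the 10 with most counts; the neighbours of ATCG00290 and ATCG00700, and the ends of the low stretches, were named after their values were seen. Comparisons by class of chloroplast gene, per length and for small RNA were not run. Replicate pairs of 1 genotype differed by far more than sampling noise. Chi-square per degree of freedom lay between 14.97 and 16.5 for Col-0 pairs and between 35.0 and 70.0 for xrn3-8 pairs.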

Additional observations from a re-analysis of the deposited data

How the results depend on the processing

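ATCG00290 was called lower in all 25 alternative fits. The count of higher members was 3 with scaling within the chloroplast genes and 5 with total chloroplast counts (22.8% of all tested genes), against 1; the count of lower members was 8 with DESeq2, 6 with no filter on low counts and 11 with the replicate block (18.7% of all tested genes), against 3. The added alternatives, total chloroplast counts and the share without the top 2 genes (difference 0.98, sign turned), were chosen after seeing the data. Leaving out 1 library each, higher members ranged from 0 to 1 with all-gene or nuclear scaling and from 1 to 9 within the chloroplast genes, and lower members from 2 to 39 and from 2 to 12. With all-gene scaling, 11.8% to 15.6% of all tested genes were higher and 13.3% to 16.5% lower in such fits. The 9 and the 12 came from the fit without xrn3-8 replicate 2, beside 34% and 7.99% of all tested genes. The share difference ranged from -1.28 to 0.95 percentage points, turning sign without Col-0 replicate 1 (0.0076), Col-0 replicate 2 (0.027) and xrn3-8 replicate 3 (0.95). The median log2 fold change ranged from -0.24 to -0.033, and was 0.043 with total counts or total chloroplast counts. Nuclear list calls in fits without 1 library ranged from 4 to 8 higher and 4 to 5 lower with all-gene scaling. In those fits 11.8% to 15.6% of all tested genes were higher and 13.3% to 16.5% lower. Within the chloroplast genes the list calls ranged from 1 to 13 and 2 to 4. With every library in, that scaling gave 6 higher and 4 lower, beside 14.5% and 7.67% of all tested genes. The 13 came from the fit without xrn3-8 replicate 2, where 34% of all tested genes were higher and 7.99% lower. Shares of all tested genes are not given here for the other fits of that range, so it is not a result about the list. With every library in, 12 were higher with total counts (26.3% of all tested genes) and 11 with total chloroplast counts, against 8.

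For single genes with all libraries in, 171 values kept their direction and their side of the threshold, 10 gained a call, 3 lost one and 11 turned sign. The signs that turned were of uncalled members, and the cause was not tested. With total counts, ATCG00490 was at 0.077, ATCG00680 at 0.026, ATCG00120 at 0.058 and ATCG00130 at 0.0021; with total chloroplast counts they were at 0.082, 0.030, 0.060 and 0.0022; within the chloroplast genes ATCG00490, ATCG00680 and ATCG00120 were at 0.067, 0.017 and 0.036. In fits without 1 library, ATCG00490 ranged from -0.16 to 0.014 with all-gene scaling, from -0.15 to 0.016 with nuclear scaling and from -0.086 to 0.18 within the chloroplast genes. The positive values within the chloroplast genes were, for ATCG00490, ATCG00680 and ATCG00120 in this order, 0.055, 0.0032 and 0.043 without Col-0 replicate 1; with replicate 2 of Col-0 left out they were 0.071, 0.0064 and 0.035, with its replicate 3 left out 0.079, 0.046 and 0.034, 0.18, 0.13 and 0.086 without xrn3-8 replicate 2, and 0.089, 0.052 and 0.038 without xrn3-8 replicate 3. Without xrn3-8 replicate 2 ATCG00720 (0.011) and ATCG00280 (0.057) turned too.

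Replicate numbers were not taken as pairs: over all tested genes, same-numbered libraries correlated at 0.06, 0.18 and 0.14, though each library correlated best with its own number, a hint from the data only. Over the chloroplast members the same correlations were -0.0058, -0.18 and 0.21, and Col-0 replicates 1 and 2 correlated best with another number. Alternatives by gene class, inverted repeat or RNA type need annotation of the ATCG identifiers and were not run, and those for small RNA had no counts.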
